A study of Oryctolagus cuniculus with 8 samples.

Results

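The genes described here belong to transforming growth factor-β (TGF-β) and bone morphogenetic protein (BMP) signalling, and were measured by RNA sequencing in the rabbit retina. The set holds 10 names: ID1, ID2, ID3, BAMBI, TGFB2, ENG, SMAD6, SMAD7, TGFBR2 and BMPR1B. They were chosen by their levels over the 4 diets of the study, with earlier results of the same data known. Of the 10 names, 9 were found as gene symbols among the 25666 genes of the table, all 9 passed the filter on low values, and SMAD6 was not analysed here. Levels are given as FPKM, the fragments sequenced from a gene divided by its length and by the depth of the library, so that levels of different genes can be compared. Because the choice used the differences between diets, those differences are described below with their errors and are not offered as tests.

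Retinas came from wild-type male Chinchilla rabbits, a pigmented breed, which were 12 to 16 weeks old at the start and were fed for 6 months, to an age of about 10 months, and 2 retinas were sequenced for each diet. The normal diet (ND) was standard chow. The high-fat diet (HFD) was chow with 10% lard and 0.5% cholesterol, and the high-sucrose diet (HSD) was chow with 40% sucrose. The high-fat plus high-sucrose diet (HFSD) was the HFD mixture with a further 35% sucrose, so that HSD and HFSD differed in sucrose as well as in fat. The labels do not say whether both retinas of a diet came from different animals. Errors and p-values therefore measure the spread between these samples, which may be technical.

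TGF-β and BMP ligands are secreted proteins that bring together type I and type II receptors at the cell surface. The activated receptors phosphorylate SMAD proteins, which enter the nucleus with SMAD4 and switch on target genes, among them the ID genes and the genes of the pathway's own inhibitors. In the eye, BMP4 patterns the dorsal retina during development, TGF-β2 is the main TGF-β of the vitreous and retina, and endoglin (ENG) is an accessory receptor of blood vessel endothelium.

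The depth by which each library had been scaled, recovered from the FPKM steps, ranged from 15764577 to 22785832. All libraries carried NRL, a transcription factor of rod photoreceptors, at 2749 to 3554 FPKM. Summed FPKM of 10 pigment epithelium genes was 325 to 382 in ND and 78.5 to 150 in the other diets. Summed FPKM of 6 skeletal muscle genes was 434 in HSD replicate 2 and between 2.47 and 4.40 in the other libraries. Between 62 and 3410 fragments lay behind each value of the 8 genes other than ENG, and between 1 and 144 behind those of ENG. In ND, levels ran from high to low in the order ID3, ID1, BAMBI, ID2 with TGFB2, BMPR1B, TGFBR2, and SMAD7 with ENG, and the retinas overlapped between ID2 and TGFB2 and between SMAD7 and ENG.

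The study compared each diet with ND, and asked what fat and sucrose did alone and together. By the fold rule of the study, (mean FPKM + 1) of the diet divided by (mean FPKM + 1) of ND more than 54% above or 35% below 1, 3 of the 9 genes were higher in HFD (ID1, ID2 and ID3) and 0 were lower, while 0.949% of all protein-coding genes were higher and 0.809% lower. In HSD, 1 gene was higher (ID2) and 1 lower (BAMBI), beside 1.53% and 2.42% of all genes. In HFSD, 0 were higher and 6 were lower (ID1, ID2, ID3, BAMBI, TGFB2 and ENG), beside 1.03% and 2.4% of all genes. The same 6 genes were lower in HFSD than in HFD, beside 2.79% of all genes. Since the genes had been chosen with these differences known, the counts describe the choice. Applied to the deposited values, the rule passed more genes in each diet against ND than the paper reports. When each retina was left out in turn, 2 of the 3 genes stayed past the limit every time in HFD (ID1 and ID3), 4 of the 6 in HFSD against ND (ID1, ID3, BAMBI and TGFB2), and 4 of the 6 in HFSD against HFD (ID1, ID2, ID3 and BAMBI).

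With limma on log2(FPKM + 1) over 12204 genes, none of the 9 genes (0) passed an adjusted p under 0.05 in any of the 6 comparisons. Of all genes tested, 0.00819% passed in HFD against ND, 0.0574% in HSD against ND, 0.0164% in HFSD against ND, 0.00819% in HFSD against HFD, 0.344% in the sucrose diets against the diets without sucrose, and 0.00819% for the interaction of fat and sucrose. At an unadjusted p under 0.05, the numbers of the 9 genes were 2, 2, 2, 5, 4 and 2 in the same order, both with limma and with voom on recovered fragments, and voom also called 0. By limma, the shares of all genes tested at that p were 4.31%, 7.20%, 8.07%, 15.1%, 18.3% and 3.74%. The 9 genes had been chosen with these differences known, so their counts at any p describe the choice. For sucrose, a fit of the 8 libraries as only 2 groups called 2 of the 9 (TGFB2 and BAMBI), the fit without HFD replicate 1 called 1 (TGFB2), and a filter of 5 FPKM, which 6 of the genes passed, left 1 called (BAMBI). Over all genes tested, these fits called 141, 16 and 38 genes, against 42 in the first fit. All 3 comparisons with ND used the same 2 ND retinas, so they are not independent of each other. The sucrose comparison was singled out after these data had been seen.

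ID1, ID2 and ID3 encode inhibitors of DNA binding, proteins that pair with basic helix-loop-helix (bHLH) transcription factors and keep them off DNA, and their genes are classical targets of BMP signalling. All 3 were highest in HFD and lowest in HFSD by the mean of each diet. In a whole retina, fewer cells of a type and less RNA per cell cannot be told apart.

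ND retinas held 44.8 and 53.1 FPKM of ID1, HFD retinas 84.7 and 181, HSD retinas 25.3 and 70.6, and HFSD retinas 20.1 and 24.3. Both HFD retinas were above both ND retinas, both HFSD retinas were below every other library, and the HSD retinas fell on either side of ND. Mean levels were 49.0 ± 5.91 FPKM (s.d., n=2) on ND, 133 ± 67.9 on HFD, 48.0 ± 32.1 on HSD and 22.2 ± 2.94 on HFSD. The log2 change from ND, fitted on log2(FPKM + 1) with a standard error of 0.488, came to 1.33 for HFD, -0.20 for HSD and -1.11 for HFSD. Without HFD replicate 2 the HFD value was 0.78. The HSD value was -0.92 without HSD replicate 2 and 0.52 without HSD replicate 1, so its direction rested on which retina was used.

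ND retinas held 61.3 and 65.4 FPKM of ID3, HFD retinas 109 and 234, HSD retinas 17.8 and 96.8, and HFSD retinas 25.8 and 22.1. It had the highest level of the 9 genes in 6 of the 8 libraries, HSD replicate 1 and HFSD replicate 2 being the exceptions, where ID1 was higher. As for ID1, the HFD retinas were above ND and the HFSD retinas below it. HSD replicate 1 was the lowest library for ID3. The log2 change from ND came to 1.32 for HFD, -0.59 for HSD and -1.37 for HFSD, with a standard error of 0.691. The HFD value was 0.77 without HFD replicate 2. In HSD it ranged from -1.78 without HSD replicate 2 to 0.61 without HSD replicate 1.

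ND retinas held 16.5 and 17.9 FPKM of ID2, HFD retinas 25.1 and 48.2, HSD retinas 19.4 and 38.8, and HFSD retinas 8.70 and 10.8. Unlike ID1 and ID3, it was above ND in both HSD retinas. Its log2 change from ND came to 0.98 for HFD, 0.65 for HSD and -0.76 for HFSD, with a standard error of 0.368. Without HFD replicate 2 its ratio of (mean FPKM + 1) to ND was 1.44 in HFD in place of 2.07, and without HSD replicate 2 it was 1.12 in HSD in place of 1.66, both inside the limits of the fold rule. Between HFD and HFSD, which differ by the added sucrose, the log2 change was -2.43 for ID1, -1.74 for ID2 and -2.69 for ID3, and every HFSD retina was below every HFD retina for each gene. With 2 retinas a diet such splits were frequent, since 24.7% of all genes tested had both HFSD retinas below both HFD retinas, 12.5% had both HFD retinas above both ND retinas and 20.6% had both HFSD retinas below both ND retinas.

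**Figure D1:**
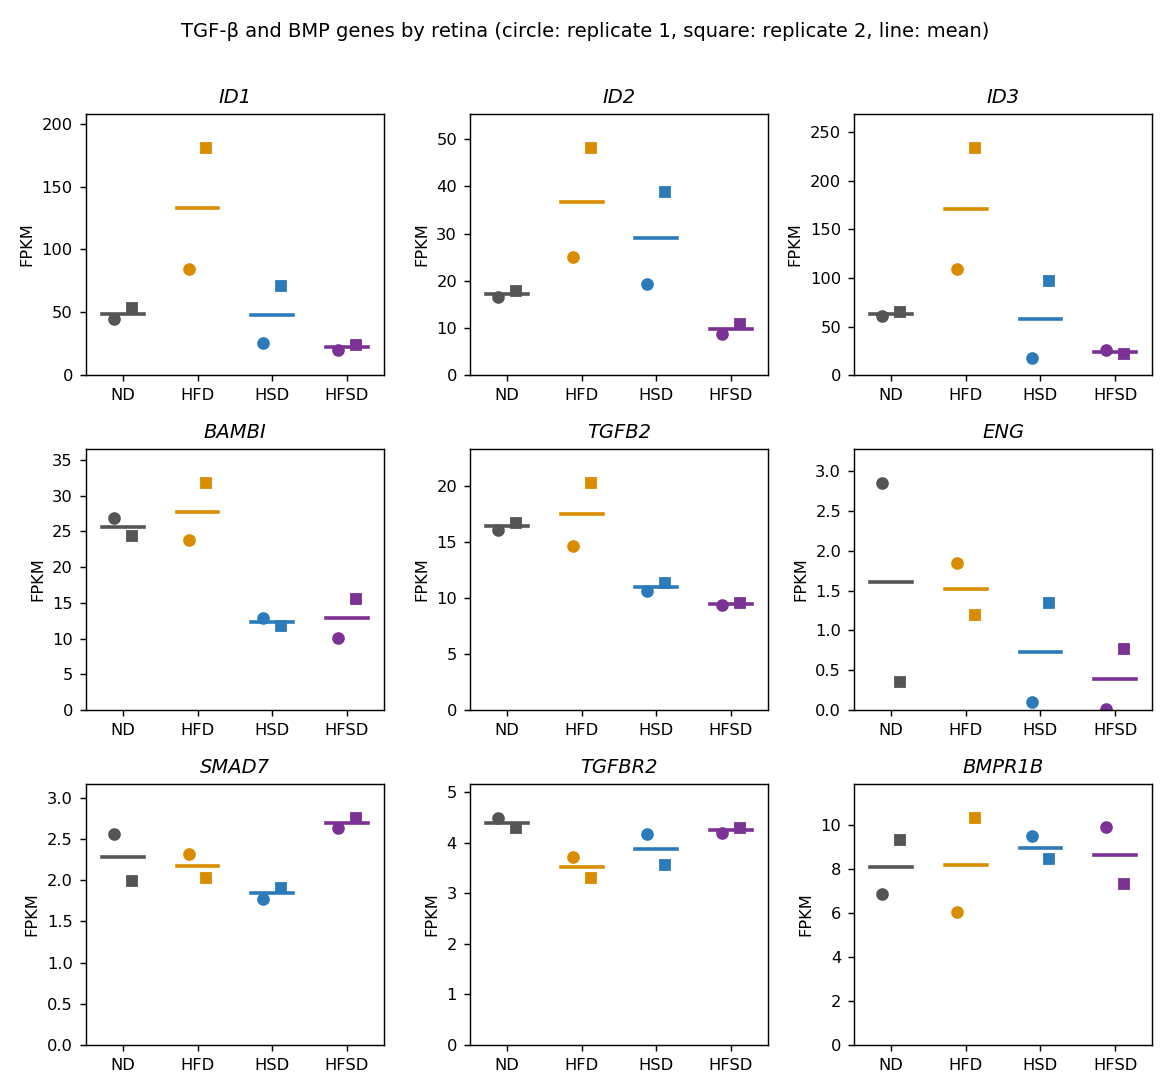
FPKM of the 9 genes in each retina, 1 panel a gene with its own vertical axis from 0, with circles for replicate 1, squares for replicate 2 and lines for the mean of each diet (n=2). ID1, ID2 and ID3 spread widely in HFD and HSD and less in ND and HFSD, while BAMBI and TGFB2 sat lower in all 4 retinas of HSD and HFSD.

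The difference between the 2 retinas of a diet is separate from the differences between diet means, and its size varied by diet. In HFD, replicate 2 exceeded replicate 1 by a factor of 2.13 for ID1, 1.92 for ID2 and 2.14 for ID3. In HSD, replicate 2 exceeded replicate 1 by 2.79, 2.0 and 5.45. On the log2(FPKM + 1) scale, the differences in HFD were larger than those of 98.2%, 97% and 98.2% of all genes tested, and those in HSD larger than those of 99.1%, 97.8% and 99.7%. In ND the same shares were 58.9%, 31.1% and 25.9%, and in HFSD 76.8%, 80.0% and 69.9%. The ratio of the higher to the lower retina was 1.19, 1.09 and 1.07 in ND and 1.21, 1.24 and 1.17 in HFSD, smaller for each gene than in HFD and HSD.

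HSD replicate 2 was the library with the muscle signal, whereas in HFD the muscle genes summed to 3.88 and 3.75 FPKM in replicates 1 and 2. Summed FPKM of 9 immediate early genes, which respond within minutes to stimulation and handling, was 128 and 736 in HFD replicates 1 and 2, and 547 and 305 in HSD replicates 1 and 2. The retina with more ID RNA thus had the higher sum in HFD and the lower sum in HSD. In HSD the difference lay mainly in EGR1 (366 and 159 FPKM) and FOS (90.9 and 54.2). FOSB, FOSL2, EGR2, EGR3 and ATF3 were also lower in replicate 2, and only NR4A1 (11 and 14.6) and JUN (61.9 and 67.8) were higher. The part of the muscle signal in the HSD values was not tested. HES1, a bHLH repressor downstream of Notch signalling that was on the list of bHLH factors and was singled out after its values were seen, was at 25.3 and 115 FPKM in HFD and at 38.2 and 38.4 in HSD.

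With the diet means removed, the differences between the 2 retinas of a diet (4 per gene) correlated with r = 0.990 for ID1 and ID2, 0.949 for ID1 and ID3, and 0.905 for ID2 and ID3, each over 4 differences. The signs matched in 4 of 4 diets for ID1 and ID2 and in 3 of 4 for ID1 and ID3, HFSD being the exception, where ID3 differed little. TGFBR2, encoding the type II receptor for TGF-β, went the other way, with r = -0.960 to ID1 and -0.963 to ID3. Its 2 retinas of a diet differed by a factor of only 1.02 (HFSD) to 1.17 (HSD). Their 95% Poisson intervals, which cover counting error only, overlapped in HFD (3.37 to 4.08 and 2.97 to 3.67 FPKM) and in HSD (3.77 to 4.62 and 3.20 to 3.95). These 4 differences come from the same libraries for every gene and are given as a description.

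**Figure D2:**
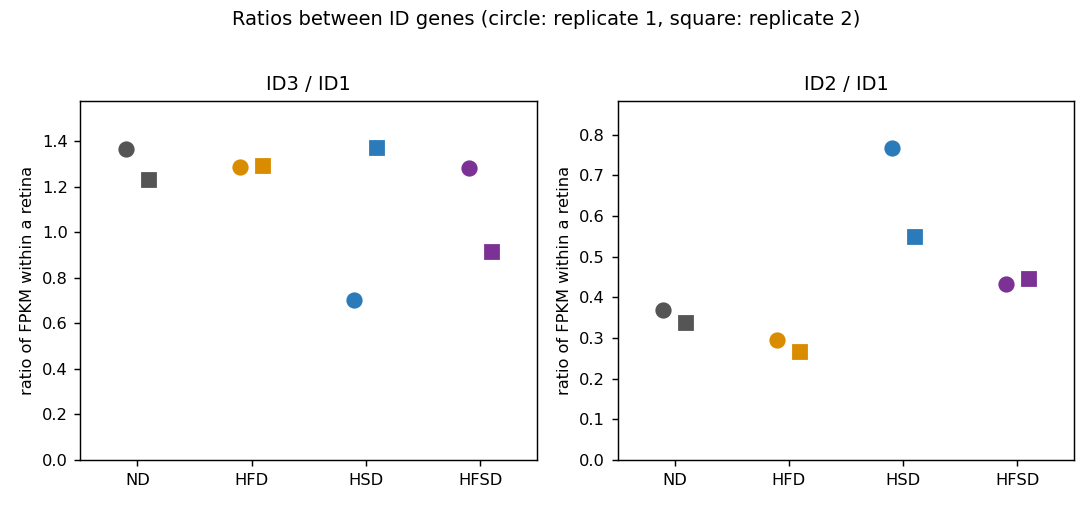
Ratio of ID3 to ID1 (left) and of ID2 to ID1 (right) in FPKM within each retina by diet, with circles for replicate 1 and squares for replicate 2 and axes from 0. ID2 relative to ID1 was 0.266 to 0.368 in the 4 retinas without sucrose and 0.433 to 0.767 in the 4 retinas with sucrose.

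Ratios within a retina do not depend on its depth. Relative to ID1, ID3 stood at 1.37 and 1.23 with ND, 1.29 and 1.29 with HFD, 0.702 and 1.37 with HSD, and 1.28 and 0.912 with HFSD. ID2 stood at 0.368 and 0.337 with ND, 0.296 and 0.266 with HFD, 0.767 and 0.549 with HSD, and 0.433 and 0.446 with HFSD. ID3 followed ID1 closely in the diets without sucrose, whereas the ratio of ID2 to ID1 was higher in every sucrose retina than in every retina without it, beside 2.25% of all genes tested in their ratio to ID1. This ratio was looked at with the levels of both genes known. The summed level of the 3 genes ranged from 54.7 to 463 FPKM over the 8 libraries.

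BAMBI and TGFB2 separated the diets by sucrose rather than by fat. BAMBI encodes a membrane protein that resembles a type I receptor without its kinase and dampens TGF-β and BMP signals, and TGFB2 encodes the ligand TGF-β2. Of the 9 genes, these 2 were lower in all 4 sucrose retinas than in all 4 others, beside 6.48% of all genes tested, and 0 were higher in all 4, beside 6.39%. The other 7 genes overlapped between the sucrose retinas and the others.

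ND retinas held 26.9 and 24.3 FPKM of BAMBI, HFD retinas 23.8 and 31.8, HSD retinas 12.9 and 11.7, and HFSD retinas 10.1 and 15.6. The HFD retinas lay around the ND retinas, and the HSD and HFSD retinas overlapped each other at a lower level. Mean levels were 25.6 ± 1.84 FPKM (s.d., n=2) on ND, 27.8 ± 5.69 on HFD, 12.3 ± 0.843 on HSD and 12.8 ± 3.87 on HFSD. The log2 change from ND came to 0.10 for HFD, -1.0 for HSD and -0.97 for HFSD, with a standard error of 0.214. Averaged over the diets, the log2 change with sucrose was -1.04 ± 0.152 (standard error), and it was between -1.18 and -0.89 with any 1 library left out.

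ND retinas held 16.1 and 16.7 FPKM of TGFB2, HFD retinas 14.7 and 20.3, HSD retinas 10.6 and 11.3, and HFSD retinas 9.35 and 9.57. As for BAMBI, the HFD retinas lay on either side of ND and the sucrose retinas below. Mean levels were 16.4 ± 0.437 FPKM (s.d., n=2) on ND, 17.5 ± 3.96 on HFD, 11 ± 0.472 on HSD and 9.46 ± 0.156 on HFSD. The log2 change from ND came to 0.07 for HFD, -0.54 for HSD and -0.73 for HFSD (standard error 0.157), and with sucrose on average -0.67 ± 0.111. Its ratio of (mean FPKM + 1) to ND was 0.602 in HFSD and 0.689 in HSD, on either side of the lower limit of the fold rule.

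The summed levels of dorsal retina and Müller cell genes also separated by sucrose, while those of ventral retina and astrocyte genes overlapped. Summed FPKM of 6 dorsal retina genes (TBX5, TBX2, TBX3, EFNB1, EFNB2 and ALDH1A1) was 92.1 to 174 in the retinas without sucrose and 60.5 to 71.1 in those with it. Of these genes, TBX5, a transcription factor of the dorsal retina that BMP4 induces, fell by 2.82 on the log2 scale with sucrose (adjusted p = 0.0271, limma), and EFNB2, a ligand of Eph receptors, fell by 2.11 (adjusted p = 0.0311, limma). Because the sucrose comparison was singled out with these data already seen, these p-values do not come from a planned test. Summed FPKM of 5 ventral genes was 37.0 to 48.8 without sucrose and 46.0 to 67.6 with it, and that of 4 astrocyte genes was 380 to 1114 without sucrose and 234 to 476 with it.

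Müller cells are the main glia of the retina, and the summed FPKM of 9 of their genes was 3522 to 4746 without sucrose and 2577 to 2735 with it. GLUL, the glutamine synthetase of Müller cells, was between 1489 and 2127 FPKM without sucrose and between 722 and 890 with it (log2 change -1.07, adjusted p = 0.0501 with limma). GLUL, CLU, RLBP1 and CRYM were lower in every sucrose retina than in every other retina, while the other 5 of the 9 genes (SLC1A3, DKK3, SOX9, VIM and AQP4) overlapped, beside 6.48% of all genes tested that were lower in every sucrose retina. Over the 8 libraries, BAMBI correlated with the dorsal sum (r = 0.876) and the Müller sum (r = 0.858), and TGFB2 likewise (r = 0.887 and r = 0.859). These correlations span the same 8 libraries and the same split by sucrose. The part of retinal position and of Müller cells in the BAMBI and TGFB2 values was not tested.

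**Figure D3:**
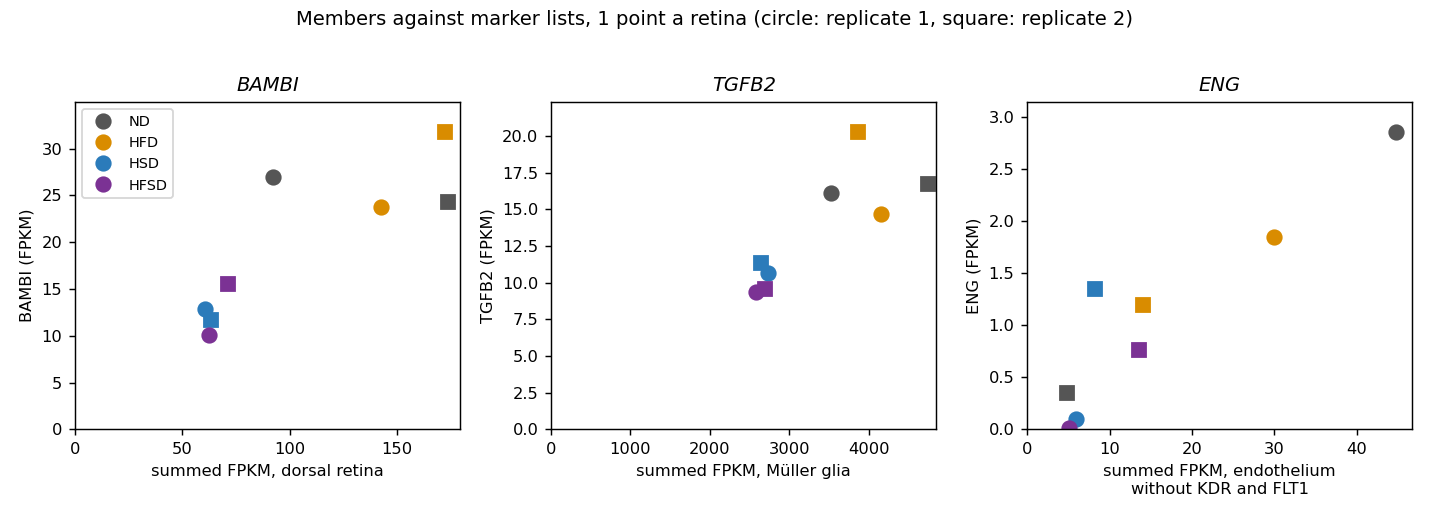
FPKM of BAMBI against the summed FPKM of 6 dorsal retina genes, of TGFB2 against 9 Müller glia genes, and of ENG against 10 endothelial genes, 1 point a retina, with circles for replicate 1, squares for replicate 2, colours for the diets and axes from 0. The 4 sucrose retinas gather at the lower left in the BAMBI and TGFB2 panels, and ND replicate 1 stands at the upper right in the ENG panel.

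ENG, the co-receptor of endothelium for BMP9 and TGF-β, was the most variable of the genes and rested on few fragments. ND retinas held 2.86 and 0.351 FPKM (144 and 16 fragments), HFD retinas 1.85 and 1.19 (95 and 56), HSD retinas 0.0984 and 1.35 (4 and 60), and HFSD retinas 0.0170 and 0.762 (1 and 31). The 95% Poisson interval of the level, which covers counting error only, was 0.0268 to 0.252 FPKM in HSD replicate 1 and 0.000431 to 0.0948 in HFSD replicate 1. It was 0.200 to 0.569 in ND replicate 2, below the 2.41 to 3.36 of ND replicate 1, so the ND retinas differed by more than counting error. The other 3 diets overlapped with ND, and the log2 change from ND came to 0.13 for HFD, -0.51 for HSD and -0.77 for HFSD, with a standard error of 0.569.

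The lower level of ENG in HFSD than in ND rested on ND replicate 1, without which the log2 change was -0.01. A pseudocount of 1 also held the value down at this level, since it was -1.86 with a pseudocount of 0.1 and -3.19 with voom on recovered fragments. Summed FPKM of 10 endothelial genes, with KDR and FLT1 left out because they made up most of the signal, reached 44.7 and 4.78 with ND, 30.0 and 14.0 with HFD, 5.90 and 8.19 with HSD, and 5.11 and 13.6 with HFSD. The endothelial genes CDH5, VWF and EMCN were all at 0 in HSD replicate 1 and in HFSD replicate 1, the 2 libraries with the lowest ENG, and EMCN was at 0 in ND replicate 2.

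ENG correlated with this endothelial sum (r = 0.903) and with the summed level of 6 mural cell genes (r = 0.915) over the 8 libraries. It also went with the summed level of 3 blood genes, ALAS2, SLC4A1 and PTPRC (r = 0.914). None of the 3 passed the filter on low values, and their sum was between 0.114 and 1.39 FPKM. With KDR and FLT1 included, the endothelial sum was 129 to 168 FPKM and did not follow ENG (r = -0.29). KDR, a receptor for vascular endothelial growth factor, was the larger contributor, with 75.8 to 131 FPKM. The part of blood vessel content in the ENG values was not tested.

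SMAD7, TGFBR2 and BMPR1B had diet means close to that of ND. SMAD7 encodes an inhibitory SMAD that TGF-β itself induces, with 2.56 and 2.0 FPKM in the ND retinas. HFD retinas held 2.32 and 2.03 FPKM, HSD retinas 1.78 and 1.90, and HFSD retinas 2.63 and 2.76. Both HFSD retinas were above, and both HSD retinas below, the other libraries. The log2 change from ND came to -0.04 for HFD, -0.20 for HSD and 0.18 for HFSD, with a standard error of 0.172. In contrast to the ID genes, its 2 HFSD retinas were the highest.

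ND retinas held 4.49 and 4.29 FPKM of TGFBR2, HFD retinas 3.71 and 3.31, HSD retinas 4.18 and 3.56, and HFSD retinas 4.19 and 4.29. Both HFD retinas were below both ND retinas, and the higher HFSD retina reached the lower ND value. Its log2 change from ND came to -0.26 for HFD, -0.15 for HSD and -0.04 for HFSD, with a standard error of 0.147.

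BMPR1B encodes a type I receptor for BMPs. ND retinas held 6.84 and 9.29 FPKM, HFD retinas 6.05 and 10.3, HSD retinas 9.46 and 8.43, and HFSD retinas 9.88 and 7.32. Retinas of all 4 diets overlapped, and the 2 HFD retinas differed by a factor of 1.71. Its log2 change from ND came to -0.01 for HFD, 0.14 for HSD and 0.08 for HFSD, each smaller than its standard error of 0.257.

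**Figure D4:**
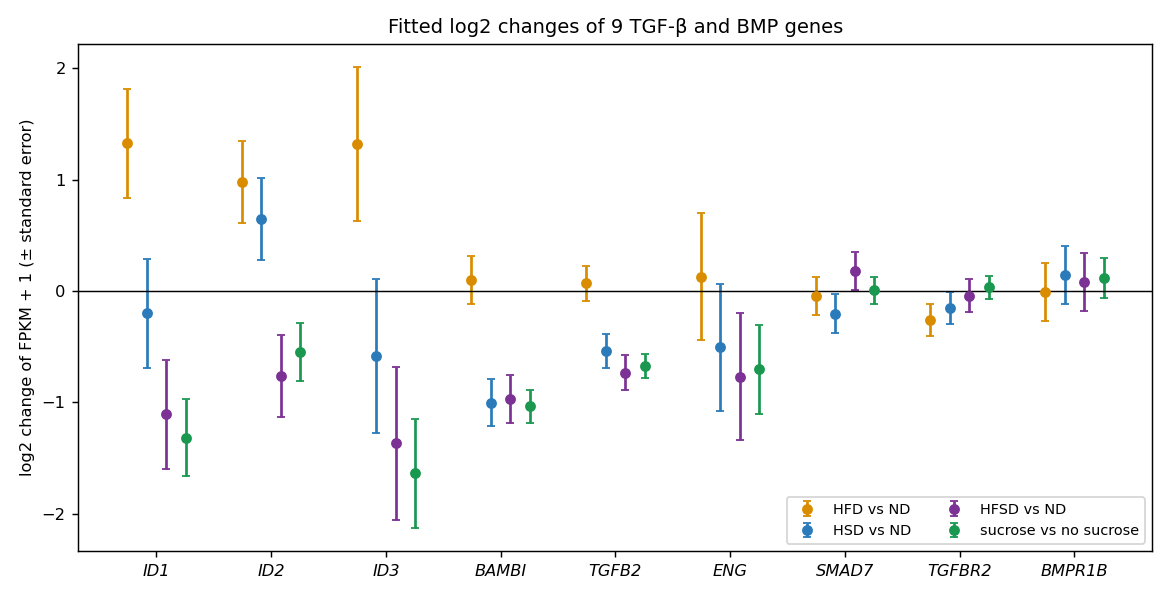
Fitted log2 change of FPKM + 1 for the 9 genes in HFD, HSD and HFSD against ND and in the sucrose diets against the diets without sucrose, with bars of ± 1 standard error from limma on 8 libraries and a line at 0. The ID genes are above 0 in HFD and below 0 in HFSD, BAMBI and TGFB2 are near 0 in HFD and below 0 with sucrose, and SMAD7, TGFBR2 and BMPR1B are within 0.3 of 0.

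By the diet means, fat went with more ID RNA without sucrose and with less of it with sucrose. The size of the second part depended on HSD replicate 2, the library with the muscle signal. Without it, the log2 change from ND in HSD was -0.92 for ID1, 0.17 for ID2 and -1.78 for ID3. The values in HFSD were -1.11, -0.76 and -1.37, so the direction turned for ID3. Without sucrose the log2 effect of fat (HFD against ND) was 1.33 for ID1, 0.98 for ID2 and 1.32 for ID3, and the interaction, by which the effect of fat with sucrose differed from that without it, was -2.24 ± 0.690 (standard error), -2.39 ± 0.520 and -2.10 ± 0.977. For 4 of the 9 genes (ID1, ID2, SMAD7 and TGFBR2) the retinas of 2 diets lay apart in opposite directions in the presence and absence of the other component, beside 6.28% of all genes tested, and the genes were chosen with these levels known. For BAMBI and TGFB2 the interaction was -0.07 ± 0.303 and -0.27 ± 0.221. For ID3, both HFSD retinas lay between the 2 HSD retinas, and its interaction ranged from -3.29 to -0.91 with 1 library left out, and the lower and upper ends came from leaving out HSD replicates 1 and 2. The interactions of ID1 and ID2 ranged from -2.96 to -1.51 and from -2.87 to -1.91, with ends from the same libraries.

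The rest of the pathway was followed through 5 lists of ligands, receptors, SMADs with their regulators, secreted binders and response genes. Of 90 listed genes, 76 were in the table, 67 of these are outside the set described above, and 55 passed the filter. With limma, none of the 55 (0) passed an adjusted p under 0.05 in any of the 6 comparisons. At an unadjusted p under 0.05, 3 genes passed in HFD, 7 in HSD, 6 in HFSD, 7 in HFSD against HFD, 9 with sucrose and 2 for the interaction, beside 4.31%, 7.20%, 8.07%, 15.1%, 18.3% and 3.74% of all genes tested. With voom the numbers were 3, 9, 7, 11, 12 and 2, with 0 called, and the fit of sucrose as 2 groups called 1 gene, the activin receptor ACVR2A.

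Counted by direction at an unadjusted p under 0.05, 1 of the 55 genes was higher and 2 lower in HFD, 3 higher and 4 lower in HSD, and 3 higher and 3 lower in HFSD. Of all genes tested, 1.80% were higher and 2.51% lower for HFD, 2.70% and 4.51% for HSD, and 3.70% and 4.37% for HFSD. The median log2 change of the 55 genes from ND came to -0.04 for HFD, 0.06 for HSD and -0.03 for HFSD, and that of all genes tested to 0.006, -0.002 and -0.004.

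Among the ligands other than TGFB2, 9 passed the filter, with a median log2 change from ND of -0.10 for HFD, -0.10 for HSD and -0.20 for HFSD. BMP4, which patterns the dorsal retina, was low in all diets, at 0.677 to 1.64 FPKM. BMP2 was at 3.13 and 3.25 FPKM in ND and at 1.87 and 0.995 in HSD, a ratio of (mean FPKM + 1) of 0.580 that became 0.684 without HSD replicate 2. TGFB3, the paralog of TGFB2, which was singled out after its values were seen, was at 5.09 to 6.86 FPKM without sucrose and 4.0 to 4.65 with it (log2 change -0.33, adjusted p = 0.198 with limma).

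Among the receptors, 10 genes outside the set passed the filter, and their medians were -0.15, 0.08 and 0.09 in the same order. The type I receptors BMPR1A and TGFBR1 were at 5.84 to 6.92 FPKM and 6.95 to 11 FPKM. ACVR2A, a type II receptor for activins, was at 9.28 to 11.4 FPKM without sucrose and 13.5 to 14.4 with it (log2 change 0.43, adjusted p = 0.0921 with limma). ACVR1C, a type I receptor also known as ALK7, was at 2.32 and 3.16 FPKM in ND and 4.80 and 5.50 in HSD, a ratio of 1.65 that became 1.48 without ND replicate 1. Of the 55 pathway genes outside the set, 6 were higher and 6 lower in every sucrose retina than in every other retina, beside 6.39% and 6.48% of all genes tested. The 6 higher genes were 3 receptors, 2 of the SMAD list and 1 response gene, and the 6 lower genes were 1 ligand, 4 secreted binders and 1 response gene. The receptors were TGFBR1, ACVR2A and BMPR2, the type II receptor for BMPs. TGFBR1 was at 9.37 to 11 FPKM with sucrose and 6.95 to 8.50 without it, and BMPR2, which was singled out after its values were seen, at 17.5 to 21.2 and 8.81 to 16.9 FPKM.

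Among SMADs and their regulators, the 12 genes that passed had medians of -0.03, 0.10 and 0.02. SMAD4, the shared partner of all receptor-activated SMADs, was at 23.5 to 27.1 FPKM in the 8 libraries. SMAD1 and SMAD5, which carry the BMP signal, were at 2.81 to 4.26 and 18.2 to 35.6 FPKM, with overlapping ranges with and without sucrose. The RNAs of these signal transducers spanned narrow ranges beside those of the ID genes.

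Among the secreted binders, 13 genes passed, with medians of -0.04, -0.11 and -0.03. SOSTDC1, a secreted BMP antagonist, had 1.35 and 2.19 FPKM with ND, 0.325 and 1.21 with HSD, and 0.150 and 0.135 with HFSD, ratios to ND of 0.638 and 0.412, the first of which became 0.798 without HSD replicate 1. FSTL1, a secreted glycoprotein that binds BMPs, was at 15.8 and 17.4 FPKM in ND and 8.92 and 10.5 in HFSD, a ratio of 0.608 that became 0.652 without HFSD replicate 1. DCN, a matrix proteoglycan that binds TGF-β, was at 1.77 and 16.2 FPKM in HSD beside 1.62 and 0.532 in ND, and its ratio of 4.80 became 1.33 without HSD replicate 2, the library with the muscle signal.

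Among the response genes outside the set, 11 passed, and their medians were 0.19 for HFD, 0.08 for HSD and -0.44 for HFSD, and the fitted change in HFSD was negative for 9 of the 11, of which 0 passed an unadjusted p under 0.05, and for 50.8% of all genes tested. The 5 genes below the HFSD median were COL1A2 (-0.71), COL3A1 (-0.69) and COL1A1 (-0.64), which encode fibrillar collagen chains, CCN1 (-0.49), a matricellular protein gene, and ACTA2 (-0.45), the actin gene of smooth muscle and pericytes. All 3 collagen genes were higher in ND replicate 1 than in ND replicate 2, and so were most vessel genes, such as the pericyte gene RGS5 (8.97 and 0.184 FPKM) and the endothelial gene EMCN (2.39 and 0). In the same comparison the fitted change was negative for 3 of 4 mural cell genes and 4 of 7 endothelial genes, with PDGFRB (0.06), KDR (0.16), ESAM (0.32) and FLT1 (0.43) above 0. The part of blood vessel content in the response genes was not tested. For ATOH8, a bHLH factor that BMP9 induces in endothelium, ND retinas held 1.30 and 1.6 FPKM, HFD retinas 2.52 and 3.03, HSD retinas 0.701 and 1.28, and HFSD retinas 0.740 and 0.873. By the diet means it was highest in HFD and lowest in HFSD, as were the ID genes, except that its HSD retinas were both below ND. Its ratio of (mean FPKM + 1) in HFD was 1.44 without HFD replicate 2, inside the limit of the fold rule. Its log2 change was 0.63 ± 0.217 (standard error) in HFD, and between HFD and HFSD it was -1.06 (adjusted p = 0.176 with limma).

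KLF10, an early response gene of TGF-β, was at 2.10 and 1.53 FPKM in ND and 2.16 and 6.18 in HFD, and its ratio of 1.84 became 1.12 without HFD replicate 2. MSX2, a homeobox gene induced by BMPs that lay below the filter and was singled out after its values were seen, had 0.278 and 0.333 FPKM with ND, 0.976 and 1.02 with HFD, 0.0575 and 0.158 with HSD, and 0.139 and 0.201 with HFSD. Both HFD retinas of MSX2 were above, and all 4 sucrose retinas below, those of ND.

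The collagen genes COL1A2 and COL3A1 were at 1.43 and 0.605 FPKM and at 1.30 and 0.183 FPKM in ND. In HFSD they were at 0.0833 and 0.339 FPKM and at 0.00710 and 0.0410 FPKM, with ratios to ND of 0.60 and 0.588. COL3A1 also had a ratio of 0.643 in HFD. Without ND replicate 1, the HFSD ratios were 0.755 for COL1A2 and 0.866 for COL3A1, and the HFD ratio of COL3A1 was 0.946, all inside the limits of the fold rule. In HSD the retinas were far apart for both, at 0.110 and 2.93 FPKM for COL1A2 and at 0 and 2.21 for COL3A1, replicate 2, the library with the muscle signal and with the most DCN, being higher. The part of that library's muscle signal in the collagen values was not tested.

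**Figure D5:**
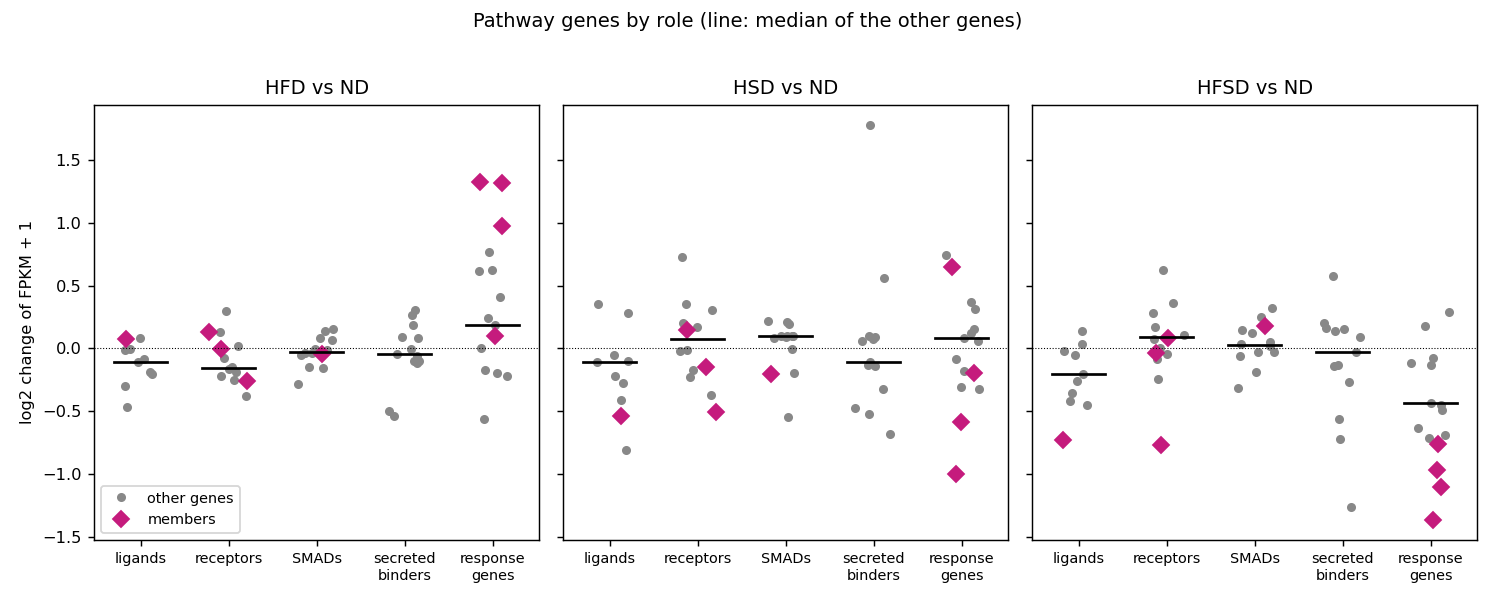
Fitted log2 change of FPKM + 1 against ND in HFD, HSD and HFSD for the pathway genes that passed the filter, by role, with grey circles for the 55 other genes, diamonds for the 9 genes of the set and lines for the median of the other genes. The other response genes have a median of -0.44 in HFSD, while the SMADs stay within 0.1 of 0 by their median in every diet.

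The bHLH list, partners that ID proteins can bind and retinal bHLH factors, held 6 genes outside the set that passed, with medians of 0.11, 0.17 and 0.21. With limma, 0 of the 6 passed an adjusted p under 0.05, and at an unadjusted p under 0.05 1 gene was higher with sucrose and 0 were lower, beside 9.17% and 9.16% of all genes tested. TCF4, a widely expressed E protein, was at 20.8 to 27.3 FPKM over the 8 libraries.

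Over the 8 libraries, the log2(FPKM + 1) values of the genes correlated with each other with r = 0.975 for ID1 and ID3, 0.894 for ID1 and ID2, 0.930 for BAMBI and TGFB2, and -0.805 for ID1 and TGFBR2. Genes most alike were sought among 9258 genes with a mean of at least 5 FPKM, of which 1632 without a symbol were passed over. Those most like ID1 were ID3 (r = 0.975), C1QL3 (0.956) and STX6 (0.951), and those most like ID3 were ID1 (0.975), SLC37A4 (0.956) and HAUS5 (0.955). For ID2 they were TRMO (0.960), C1QL3 (0.940) and RALY (0.922). Among genes with a symbol, ID1 and ID3 were each other's nearest match, and C1QL3 was shared by ID1 and ID2.

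For BAMBI the genes most alike included PFKFB4 (r = 0.966) and NR2F2 (0.950), and for TGFB2 they were NAA80 (0.980), GGCX (0.973) and SLC25A25 (0.962). For ENG they were SOD3 (0.963), TAF11 (0.952) and HBB2 (0.944), the last a globin gene named in the table. For SMAD7 they were NMNAT2 (0.980), NKIRAS2 (0.940) and FAM13C (0.939). For TGFBR2 they were ZBTB21 (0.966), AP2B1 (0.951) and CASP2 (0.943), and for BMPR1B they were HECA (0.982), CLIP1 (0.972) and CIC (0.972). Each of these correlations uses the same 8 libraries, which share diets and depths.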

How the data were processed

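Retinal RNA from 8 libraries of TruSeq type, 2 a diet, was analysed. The deposited values are FPKM per gene, calculated by the authors with in-house R code from uniquely placed TopHat2 alignments of reads whose 5′ ends had been cut after inspection with FastQC. The genome build and annotation are not given in the sources used here. No value column lacked a sample (0 columns).

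Genes were found by symbol. limma (version 3.58.1, R 4.3.3) was fitted on log2(FPKM + 1) of the 12204 protein-coding genes that reached 1 FPKM in 2 or more libraries, as 4 diets in 1 model with a mean-variance trend, and p-values were adjusted by Benjamini-Hochberg over all of them, called under 0.05. The fold rule was applied to 19293 protein-coding genes. Whole fragments were recovered from the FPKM steps for 100% of tested genes within 0.02 fragments, and served for voom and for counting intervals. The fits were checked on simulated data.

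The genes, the lists and the sucrose comparison were chosen with earlier results of these data known. Pathway genes outside the set are named when called, when past a fold limit against ND with both retinas beyond both ND retinas, or as references for level, while ACVR2A, BMPR2, TGFB3, SMAD1, SMAD4, SMAD5, COL1A1, CCN1, ACTA2, MSX2, HES1 and TCF4 were named after their values were seen, and the 3 most correlated genes are named for each member, except that some items are not reported here. Alternatives changed the pseudocount, filter, scaling, trend, block, groups and libraries. ID4 and TGFB1 were not analysed here, and no sequences are printed, since none were used here.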

Additional observations from a re-analysis of the deposited data

Results flagged for a closer look

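For 4 of the genes, the retinas of a diet moved one way under a change of diet in 1 setting and the opposite way in another, as did those of 6.28% of all genes tested. For ID1, both HFD retinas were above ND, whereas both HFSD retinas were below both HSD retinas, and the effect of fat differed by -2.24 (log2, with sucrose minus without). HFSD replicate 2 (24.3 FPKM) and HSD replicate 1 (25.3) had overlapping 95% Poisson intervals, 21.9 to 26.8 and 22.9 to 27.8. Without HSD replicate 2, the library with the muscle signal, the difference was -1.51. For ID2, the effect of fat and likewise the effect of sucrose turned in direction, with a difference of -2.39. For SMAD7, sucrose alone went with lower and sucrose added to fat with higher values, a difference of 0.42. For TGFBR2, the effects of fat and of sucrose both turned, a difference of 0.37. The turn in the effect of fat rested on 4.19 FPKM in HFSD replicate 1 against 4.18 in HSD replicate 1. Their 95% Poisson intervals were 3.85 to 4.55 and 3.77 to 4.62. The standard errors were 0.690, 0.520, 0.243 and 0.208. The differences are given without a test of their own, since the genes were chosen with these diets known, and 0 of the 9 genes passed an adjusted p under 0.05 for the interaction over all genes tested with limma (2 at an unadjusted p under 0.05, and 0 adjusted with voom).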

How the results depend on the processing

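The log2 changes of the 9 genes were compared over the alternatives of pseudocount, scaling, block, voom and left-out libraries. Of these values, 639 moved by less than the spread between retinas and 63 moved by more. Many of the 639 could not move. The block leaves each log2 change as it was, and so does leaving out a library of a diet outside the comparison. Across all genes, the counts called were small and moved. HFD against ND had 1 call, 2 in the 2-group fit, and 1 to 2 with a retina left out. HSD against ND had 7, but 3 without the filter, 2 without the trend, 1 with voom, 3 in the 2-group fit, and 3 to 17 with a retina left out. HFSD against ND had 2, 4 with quantile normalization, 0 in the 2-group fit, and 2 to 11 with a retina left out. HFSD against HFD had 1, 16 in the 2-group fit, and 1 to 7 with a retina left out. The sucrose comparison had 42, but 8 without the filter, 23 with voom, 141 in the 2-group fit, and 4 (without HSD replicate 2) to 82 (without ND replicate 1) with a retina left out. The interaction had 1, and 0 with a pseudocount of 0.1, without the filter, with median-of-ratios scaling, without the trend and with voom, and 0 to 10 with a retina left out. It was not run in a 2-group fit, which has no such term. By the fold rule, genes past the limits numbered 339 in HFD, 762 in HSD, 661 in HFSD and 908 in HFSD against HFD, and 1533, 2311, 2145 and 2440 with a pseudocount of 0.1. With a retina left out the ranges were 629 to 777, 881 to 1116, 831 to 1200 and 1045 to 1499. The replicate numbers share only a name, since the differences between retinas correlated between diets at -0.16 to 0.08. With the replicate block, the calls were 4 in HFSD, 3 in HFSD against HFD, 25 for sucrose and 0 for the interaction, and 0 of the 9 genes were called. ENG at 1 to 16 fragments in 3 libraries was the value that depth limited.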
